A study of Mus musculus with 41 samples.

Results

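The transcription factors of the epithelial-mesenchymal transition and 4 of their best known readouts were followed in 41 mouse mammary tumors. The 10 genes, of 47480 gene symbols in the table, were chosen by name for their known roles: Snai1, Snai2, Twist1, Twist2, Zeb1 and Zeb2 as factors, and Cdh1 (E-cadherin), Cdh2 (N-cadherin), Vim (vimentin) and Fn1 (fibronectin) as readouts. All 10 passed the filter for testing, a mean of at least 10 over the tumors of each comparison.

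The study sequenced mRNA from tumors of Balb/c mice that lacked p53 or both p53 and Plk2, a kinase of the polo-like family, to learn how loss of Plk2 bears on mammary tumors. All 41 tumors were p53-/-, untreated and grown as orthotopic transplants in syngeneic hosts. The Plk2-/-; p53-/- group (PLK2null in the labels) had 28 tumors and the p53-/- group (p53null) had 13. The study placed PLK2null-732, PLK2null-733 and PLK2null-743 and the p53null tumor T11 in the claudin-low class, a class known for low levels of tight junction and epithelial genes, which leaves 25 other PLK2null and 12 other p53null tumors. These tumors limit what a group can stand for. They arose from mammary tissue placed in the cleared fat pads of wild-type mice, so both deletions were in the grafted tissue and the host stroma was wild-type. PLK2null tumors were passaged by transplantation and may descend from one another, and p-values then measure the spread between these tumors only. No ages are given.

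The epithelial-mesenchymal transition is a change of state in which epithelial cells loosen their junctions and take on features of mesenchymal cells. Snail, Twist and Zeb proteins are DNA-binding factors that drive it in development and in cell culture, and Snail and Zeb proteins repress Cdh1 by binding short E-box sequences. In the mammary gland, luminal cells hold E-cadherin at their junctions, basal cells carry more Snai2, and stromal cells supply most vimentin and fibronectin. Zeb1, Zeb2 and Vim are also expressed by cells of vessels and, for Zeb2 and Vim, by immune cells.

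Snai1 lies on chromosome 2 at 167538195-167542814 (plus strand) and Snai2 on chromosome 16 at 14705852-14709385 (plus). Twist1 is on chromosome 12 at 33957671-33959829 (plus) and Twist2 on chromosome 1 at 91801461-91848028 (plus). Zeb2 lies on chromosome 2 at 44983632-45117395 (minus), Cdh1 on chromosome 8 at 106603351-106670246 (plus), Vim on chromosome 2 at 13573927-13582826 (plus) and Fn1 on chromosome 1 at 71585520-71653200 (minus), all in GRCm38, the mm10 build. Twist2, Zeb1, Zeb2, Cdh2 and Fn1 overlap genes on the opposite strand, Zeb2os among them, and a strand setting is not given in the sources used here, so reads of the partners cannot be told apart. The other 5 overlap no annotated gene. No pair of the 10 genes shared a run of 50 bases in its annotated transcripts, so Snai1 and Snai2, or Twist1 and Twist2, did not share such reads.

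RefSeq promoter windows on GRCm38.p6 run from 250 bases before to 50 bases after an annotated start. They were matched for 5 of the 10 genes: Snai1, Twist1, Twist2, Zeb2 with 4 windows, and Vim. The Vim window, like some Zeb2 windows, lies inside the gene positions given above, so it uses another start. All windows were searched on both strands for the E-box letters CACCTG, whose other strand reads CAGGTG. Of all 32851 windows, 20.2% held them, and of the 8 windows of these genes only that of Snai1 did. It is shown, with the E-box letters in capitals, beside that of Vim, which holds none. The first base of the Snai1 match lies at position −126 from the start site. A match is a description of the letters and not of binding.
Snai1 (chr2:167537945-167538244, plus strand): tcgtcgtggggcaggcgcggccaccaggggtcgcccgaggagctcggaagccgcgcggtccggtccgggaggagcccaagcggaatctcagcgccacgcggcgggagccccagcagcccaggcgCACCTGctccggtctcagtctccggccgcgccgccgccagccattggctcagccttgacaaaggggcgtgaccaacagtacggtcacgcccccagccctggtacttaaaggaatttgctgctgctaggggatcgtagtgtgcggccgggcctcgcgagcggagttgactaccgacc
Vim (chr2:13574061-13574360, plus strand): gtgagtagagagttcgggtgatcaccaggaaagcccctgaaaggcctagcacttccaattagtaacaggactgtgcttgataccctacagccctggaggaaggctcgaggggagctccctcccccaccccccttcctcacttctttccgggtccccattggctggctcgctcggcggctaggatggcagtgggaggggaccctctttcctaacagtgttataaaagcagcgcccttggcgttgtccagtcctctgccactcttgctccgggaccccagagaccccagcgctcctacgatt

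Values are estimated read counts that the authors scaled so that the upper quartile of nonzero values was 1000 in each tumor, and they are called normalised read counts here. The steps between low values imply 31910477 to 53244774 fragments on genes in the PLK2null libraries and 29409718 to 70868261 in the p53null libraries. A value of 1.16 to 2.45 corresponds to 3 reads, the floor used here, which covers counting error only. All 10 genes lay above the floor in every tumor. Plk2, the deleted gene, was 298 ± 149 (SD, n = 28) in the PLK2null tumors and 3436 ± 2104 (SD, n = 13) in the p53null tumors, and the library labelled p53null-7435 had 186, inside the PLK2null range of 36.6 to 553. Tests of differences were 2-sided and made with limma on log2(value + 1), a scale that understates changes of low genes. Their adjusted p is a Benjamini-Hochberg value over all genes tested, and that of a correlation is over the 12 pairs tested. Titles of the p53null libraries carry a series name that no PLK2null title carries. What the name stands for is not given, and a difference that goes with it cannot be told apart from genotype.

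The genes differed in level. Per kilobase of annotated exon, the medians of the 25 other PLK2null tumors were 3369 for Fn1, 2527 for Vim and 2332 for Cdh1. The factors were lower on that scale, with 512 for Snai1, 416 for Twist1, 50.6 for Zeb2, 38.3 for Snai2, 27.8 for Zeb1 and 11.97 for Twist2, and Cdh2 had 151. In the 3 claudin-low PLK2null tumors the order of the per-kilobase medians was Vim (11326), Fn1 (1704), Zeb1 (553), Snai1 (461), Snai2 (184), Twist1 (131), Zeb2 (102), Cdh2 (53.6), Cdh1 (3.21) and Twist2 (1.93). Zeb1 stood between Snai2 and Twist2 in the first order and above every other factor in the second. Exon length was the union over annotated transcripts, 19942 bases for Zeb2 and 1621 for Snai1, so these orders depend on it. Undivided, the median of the 25 other PLK2null tumors was 1008 for Zeb2 and 830 for Snai1.

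**Figure D1:**
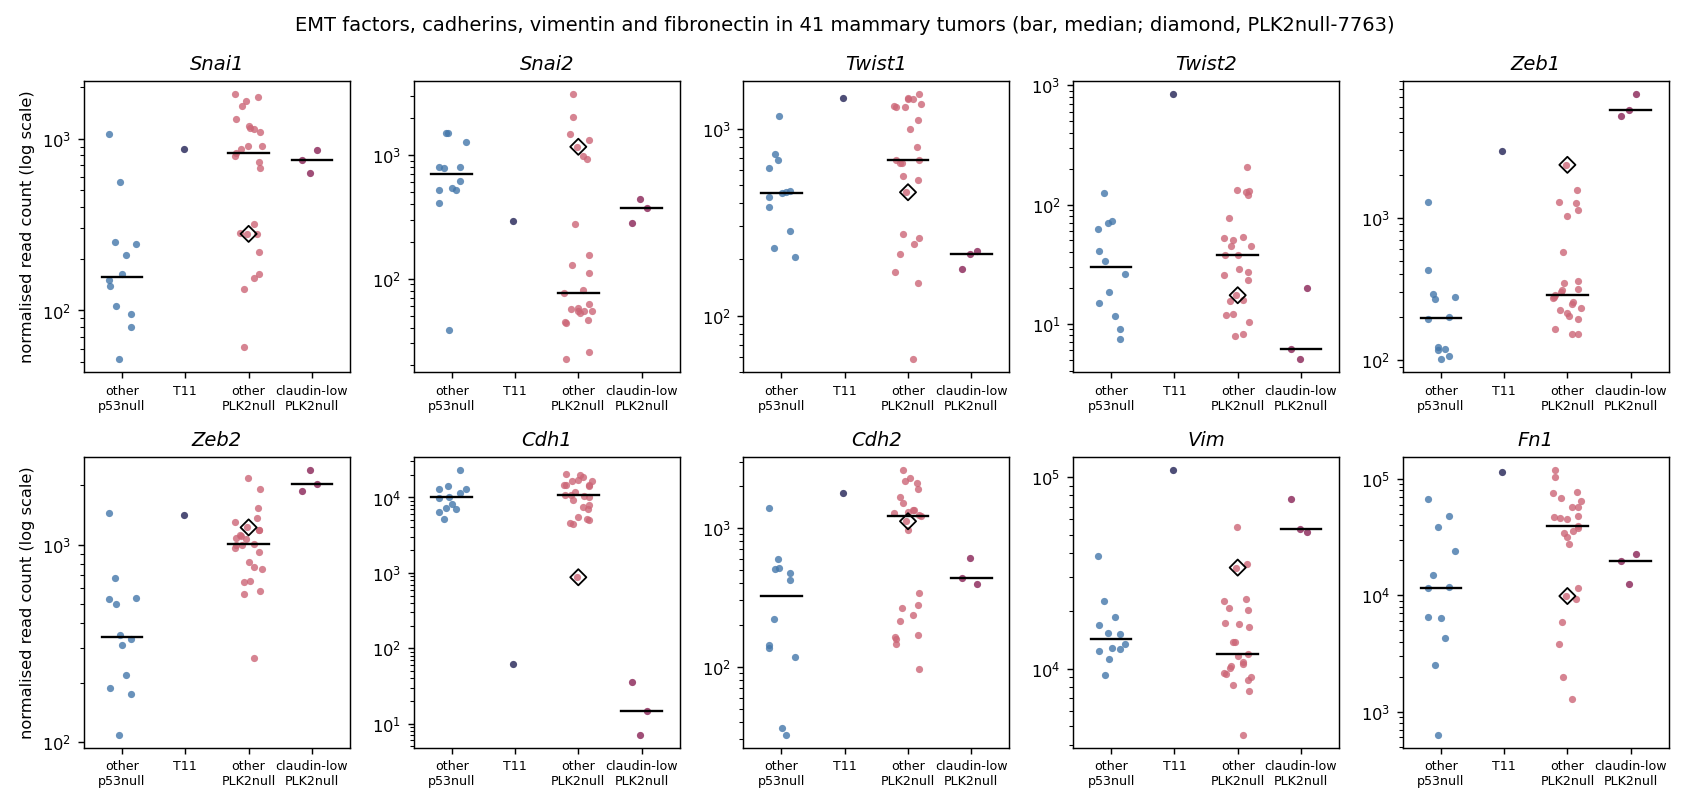
Normalised read count (vertical axis, log scale) of each of the 10 genes, 1 point per tumor, in the 12 other p53null tumors, T11, the 25 other PLK2null tumors and the 3 claudin-low PLK2null tumors. Bars are medians and the diamond is PLK2null-7763. The 4 claudin-low tumors lie above all others in Zeb1 and below all others in Cdh1, and Twist1, Twist2 and Fn1 of T11 lie far from those of the 3 claudin-low PLK2null tumors.

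The first question was whether the 10 genes differed between PLK2null and p53null tumors. Snai1 and Zeb2 were higher in the PLK2null tumors and Snai2 was lower, while Twist1, Twist2, Zeb1, Cdh1, Cdh2, Vim and Fn1 did not pass the test. The 3 genes called of 10 compare with 39.5% of all genes called in this comparison, so the share among the 10 was near the background. Of 17208 genes, 24.3% were higher and 15.3% lower in the PLK2null tumors. Higher calls were 61.4% of the calls, and 50.7% with quantile normalization or 49.3% with median-of-ratios rescaling.

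Snai1, the founding member of the Snail family and a direct repressor of Cdh1, ranged from 61.4 to 1813 with a median of 811 in the 28 PLK2null tumors. In the 13 p53null tumors it ranged from 52.3 to 1062 with a median of 164. The groups overlapped, but 9 PLK2null tumors lay above every p53null tumor. The log2 difference was 1.55 (SE 0.43), a 2.94-fold higher level, with a limma adjusted p of 0.00317.

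Snai2, the Snail relative known for its expression in basal mammary cells, went the other way. The PLK2null tumors ranged from 22.6 to 3096 with a median of 96.3, and the p53null tumors from 38.6 to 1516 with a median of 622. The PLK2null tumors surrounded the p53null range, with 2 tumors above all of it and 2 below. The log2 difference was −1.74 (SE 0.62), 3.33-fold lower, with a limma adjusted p of 0.0240. Beside this, the basal keratins Krt5 and Krt14 of the epithelial marker list were called lower in the PLK2null tumors, while Epcam, Krt8, Krt18 and Krt19 were not called. The summed epithelial markers ranged from 49.1 to 118410 in the PLK2null and from 33769 to 283464 in the p53null tumors. Acta2 alone was called, lower, among 6 markers of smooth muscle and myoepithelium. The part of these markers in the result for Snai2 was not tested. In bulk tissue, fewer cells of a type and less RNA per cell cannot be told apart.

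Zeb2, a zinc finger repressor of epithelial genes, had the smallest adjusted p of the 10 genes between the genotypes. It ranged from 266 to 2382 with a median of 1071 in the PLK2null tumors and from 110 to 1444 with a median of 350 in the p53null tumors. Of the PLK2null tumors, 6 lay above every p53null tumor. The log2 difference was 1.405 (SE 0.28), 2.65-fold higher, with a limma adjusted p of 7.23e-05. Of 6 macrophage markers, Cd68 was called higher in the PLK2null tumors. The summed macrophage markers were 4496 to 35466 in PLK2null and 6963 to 25596 in p53null tumors, and their part in the result for Zeb2 was not tested.

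Cdh2, the cadherin of mesenchymal and neural cells, fell short of the threshold with a log2 difference of 1.24 (SE 0.52, adjusted p = 0.0528 in limma). It ranged from 95.8 to 2609 in the PLK2null and from 32.6 to 1782 in the p53null tumors. Fn1, a matrix glycoprotein, had a log2 difference of 1.03 (SE 0.59, adjusted p = 0.169) and Zeb1 one of 0.97 (SE 0.52, adjusted p = 0.142). For Cdh1, which holds epithelial cells together, the log2 difference was −0.49 with a 95% interval of −2.33 to 1.35. For Vim, the intermediate filament of mesenchymal cells, it was −0.13 with an interval of −0.79 to 0.53. The bHLH factors Twist1 and Twist2 had log2 differences of 0.08 (interval −0.70 to 0.86) and −0.30 (interval −1.32 to 0.71). All 4 intervals spanned 0.

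The genotype calls of these genes were lost in a comparison with fewer PLK2null tumors. The study names 7 of the PLK2null tumors in its tumor latency series. With these 7 against the 13 p53null tumors, none of the 10 genes was called by limma, although 2942 genes were. The number of tumors and the choice of tumors changed together. Snai1 then had a log2 difference of 1.47 (adjusted p = 0.0929), Snai2 of −1.10 (0.366) and Zeb2 of 1.05 (0.128). Without the 4 claudin-low tumors, Cdh2 was called as well (1.52, adjusted p = 0.0222).

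**Figure D2:**
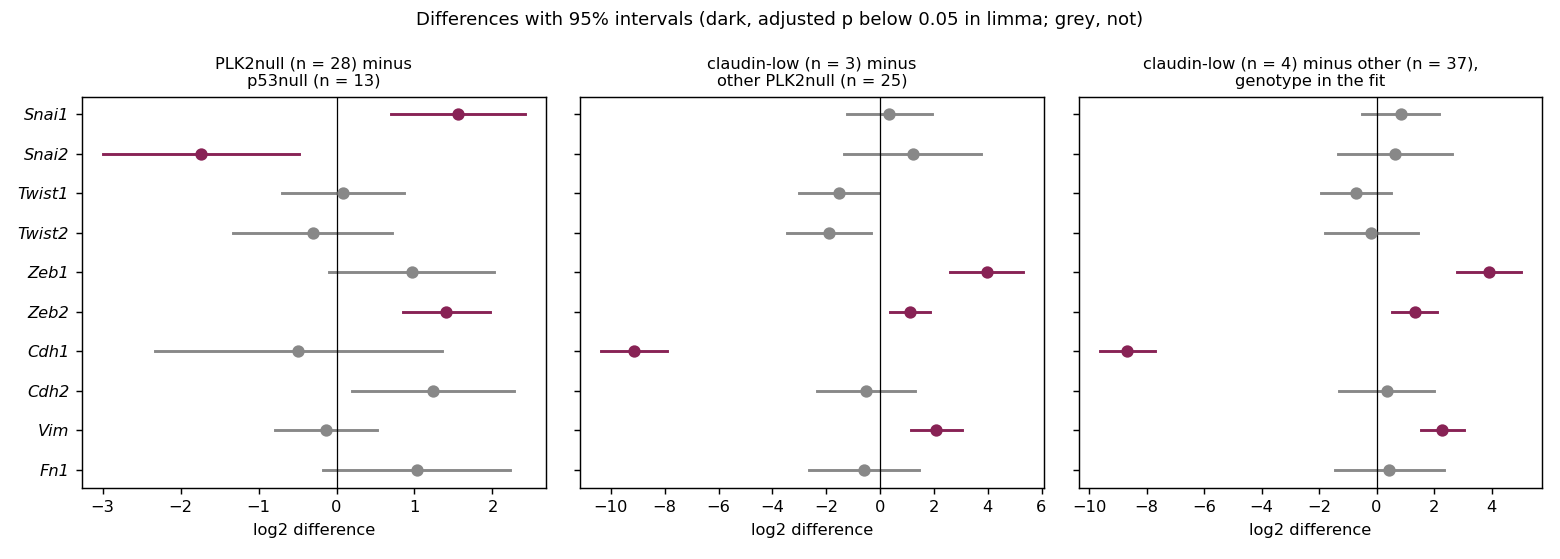
Log2 difference (horizontal axis) with its 95% interval for each gene in 3 comparisons fitted with limma, dark where the adjusted p was below 0.05. The first panel has Snai1 and Zeb2 to the right of 0 and Snai2 to the left, and the other panels have Cdh1 at −9.13 and −8.66 and Zeb1 at 3.96 and 3.91.

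The next question was how the claudin-low tumors differed from the rest. Within the PLK2null tumors, Zeb1, Zeb2 and Vim were higher in the 3 claudin-low tumors and Cdh1 was lower. Snai1, Snai2, Twist1, Twist2, Cdh2 and Fn1 did not pass the test. The 4 genes called of 10 compare with 37.3% of all 17153 genes, 20.2% higher and 17.1% lower. The median log2 difference of the 10 genes was −0.09, against 0.02 over all genes. The study assigned the claudin-low class by clustering these same profiles, so the p-values give size against spread and are no independent test of the class.

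Cdh1 was 7.19 in PLK2null-733, 14.7 in PLK2null-743 and 35.8 in PLK2null-732. The other 25 PLK2null tumors ranged from 875 to 20184 with a median of 10669. All 3 claudin-low values were lower than any other in this genotype, a pattern that 8.87% of genes had in that direction. The log2 difference was −9.13 (SE 0.60, limma adjusted p = 1.22e-12), or 561-fold lower.

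Zeb1, a zinc finger repressor of Cdh1 and of other epithelial genes, was 5119 in PLK2null-732, 5682 in PLK2null-733 and 7320 in PLK2null-743. The other PLK2null tumors ranged from 152 to 2344 with a median of 285. The groups did not overlap, which held for 11.1% of genes in that direction. The log2 difference was 3.96 (SE 0.66, limma adjusted p = 2.21e-05), 15.6-fold higher. Of the 10 genes, Cdh1 and Zeb1 were the ones whose groups did not overlap.

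Vim was 51517 in PLK2null-743, 53722 in PLK2null-733 and 76889 in PLK2null-732, against 4534 to 54918 with a median of 11987 in the others. PLK2null-1974, not of the class, reached the level of the lower claudin-low tumors. The log2 difference was 2.09 (SE 0.46, limma adjusted p = 0.000684), 4.27-fold higher. Zeb2 was 1873 in PLK2null-732, 2026 in PLK2null-743 and 2382 in PLK2null-733, against 266 to 2157 with a median of 1008, and its groups overlapped. Its log2 difference of 1.11 (SE 0.36, limma adjusted p = 0.0158) was not called without PLK2null-733 (1.01, adjusted p = 0.0903), without PLK2null-743 (1.13, adjusted p = 0.0571) or against the 7 latency tumors alone (1.35, adjusted p = 0.0536).

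Markers of cell types that express Zeb1, Zeb2 or Vim went in different directions in this comparison. All 6 endothelial markers (Pecam1, Cdh5, Kdr, Tie1, Emcn and Esam) were called higher in the claudin-low PLK2null tumors. Their sum was 165585 to 186496 in the claudin-low tumors and 2572 to 78025 in the other PLK2null tumors. All 6 pericyte markers were also called higher, with a sum of 88851 to 105609 against 3418 to 35501, and so were all 6 T cell markers, with 980 to 1889 against 63.3 to 1856. Of 6 fibroblast markers none was called higher and Dcn, Lum and Pdgfra were called lower, with sums of 14888 to 56137 against 12210 to 280437. Of 6 macrophage markers only Mrc1 was called, higher. Fabp4, which capillary endothelium shares with fat cells, was the adipocyte marker called, higher, of 4 tested, and the sum of the adipocyte list was 99120 to 124699 against 226 to 51862. The sum of 6 epithelial markers was 49.1 to 387 against 22927 to 118410, with 5 called lower. None of the markers in these lists was at 0 throughout the claudin-low or the other PLK2null tumors. Their part in the results for Zeb1, Zeb2 and Vim was not tested.

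The ranges of the remaining factors overlapped between the groups. Snai1 was 635 in PLK2null-733, 747 in PLK2null-732 and 858 in PLK2null-743, near the median of 830 among the others, which ranged from 61.4 to 1813. Snai2 was 284, 372 and 439 in PLK2null-732, PLK2null-743 and PLK2null-733, against 22.6 to 3096 with a median of 77.4. The log2 differences were 0.35 (95% interval −1.24 to 1.93) and 1.21 (interval −1.34 to 3.75). Both intervals spanned 0, so neither direction was settled with 3 claudin-low tumors.

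Twist1 was 178, 213 and 221 in PLK2null-732, PLK2null-733 and PLK2null-743, against 58.7 to 1529 with a median of 677 in the others. Twist2 was 5.08, 6.13 and 20.1 in PLK2null-733, PLK2null-732 and PLK2null-743, against 7.91 to 205 with a median of 38.0. Both values lay toward the low end, and neither log2 difference passed the test, with −1.53 for Twist1 (SE 0.72, adjusted p = 0.0965 in limma) and −1.90 for Twist2 (SE 0.76, adjusted p = 0.0508). Twist2 was called lower under a pseudocount of 0.1 (−2.01, adjusted p = 0.0461), median-of-ratios rescaling (−1.95, 0.0430), without PLK2null-743 (−2.46, 0.0458) and without PLK2null-7763 (−1.94, 0.0472).

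The mesenchymal readouts Cdh2 and Fn1 were not called in the claudin-low PLK2null tumors, and their medians were below those of the others. Cdh2 was 392, 432 and 611 in PLK2null-743, PLK2null-732 and PLK2null-733, against 95.8 to 2609 with a median of 1214. Fn1 was 12453, 19911 and 22538 in PLK2null-733, PLK2null-732 and PLK2null-743, against 1280 to 119984 with a median of 39369. The log2 differences were −0.52 (95% interval −2.33 to 1.29) and −0.60 (interval −2.65 to 1.45). Measured within a tumor, log2 Cdh2 minus log2 Cdh1 was 3.56 to 6.22 in the 3 claudin-low tumors and −7.25 to 0.35 in the other 25. The Cdh1 values of the groups did not overlap and those of Cdh2 did.

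**Figure D3:**
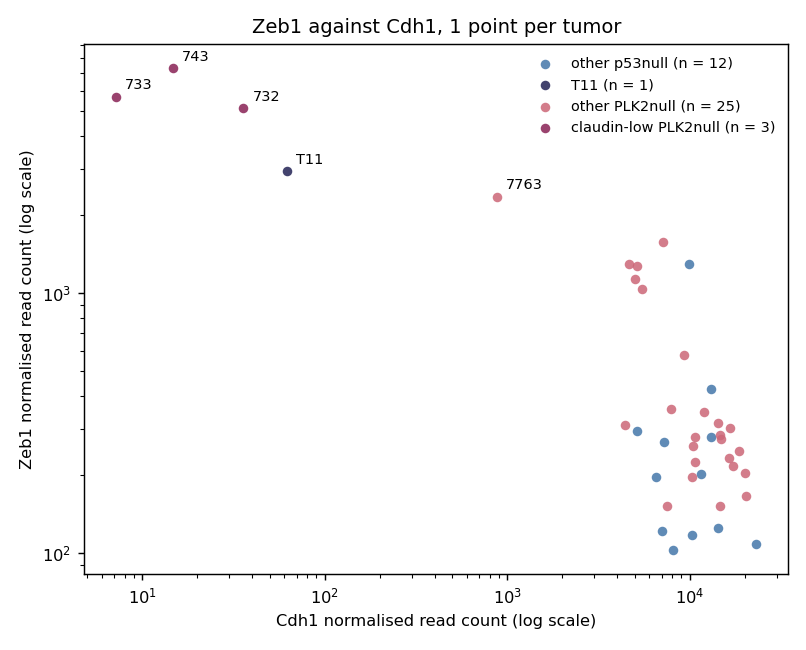
Zeb1 (vertical axis) against Cdh1 (horizontal axis), normalised read counts on log scales, 1 point per tumor. The 4 claudin-low tumors are at the upper left, PLK2null-7763 lies between them and the rest, and in the other 36 tumors Cdh1 was 4414 to 23162.

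PLK2null-7763, a tumor that the study does not place in the claudin-low class, stood between the groups for several of the 10 genes. Its Cdh1 of 875 was below all 24 remaining PLK2null tumors, which had at least 4414, and 12.2-fold below their median. Its Zeb1 of 2344 was above all 24, whose highest value was 1565, and its Vim of 33638 was above 22 of them. Zeb2 (1221), Cdh2 (1115), Twist1 (457) and Twist2 (17.4) lay within the others' range. Snai2 was high at 1165 and Snai1 (279) and Fn1 (9869) were low, each exceeded or undercut by no more than 5 tumors. The endothelial marker sum of 78025 in this tumor was the highest of the 25, as was the pericyte sum of 35501, while its epithelial sum of 22927 was the lowest. Without this tumor, the calls of Zeb1, Zeb2, Cdh1 and Vim within the PLK2null tumors held.

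The claudin-low p53null tumor T11 is 1 tumor and was compared by rank with the 12 other p53null tumors. Its Cdh1 was 61.9, against 5114 to 23162, 163-fold below their median. Its Zeb1 of 2930 exceeded all 12, which ranged from 103 to 1291, and so did its Vim of 108636 against 9253 to 38724. Its Zeb2 of 1402 was exceeded by 1 of the 12, p53null-10155, at 1444. These genes placed T11 on the same side as the 3 claudin-low PLK2null tumors. Snai1 of T11 was 867, exceeded by 1 of the 12, against 635 to 858 in the claudin-low PLK2null tumors. Its Snai2 was 294, exceeded by 11 of the 12, against 284 to 439.

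Other genes placed T11 apart from the 3 claudin-low PLK2null tumors. Twist2, a relative of Twist1 known from the mesenchyme of skin and bone, was 842 in T11, against 7.39 to 124 in the other p53null tumors and 5.08 to 20.1 in the claudin-low PLK2null tumors. Twist1 was 1459 in T11, against 207 to 1177 and 178 to 221. Fn1 was 116108, against 635 to 67588 and 12453 to 22538. Cdh2 was 1782, against 32.6 to 1391 and 392 to 611. All 4 genes were thus above all 12 other p53null tumors and above the 3 claudin-low PLK2null tumors in T11.

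The difference between the claudin-low differences of the genotypes was tested with limma across all 41 tumors, where T11 is assumed to vary like the other groups. With T11 as the only claudin-low p53null tumor, genotype and this 1 tumor cannot be told apart in this comparison. Of the 10 genes only Twist2 was called, against 9.97% of all genes, 6.54% with a positive and 3.43% with a negative value. The claudin-low difference of Twist2 in the PLK2null tumors minus that in the p53null tumors was −6.71 (SE 1.51, adjusted p = 0.00309). Twist1 (−3.21, SE 1.29, adjusted p = 0.110), Fn1 (−4.07, SE 2.08, adjusted p = 0.231) and Cdh2 (−3.44, SE 1.81, adjusted p = 0.249) did not pass. For Zeb1 the value was 0.20 with a 95% interval of −2.42 to 2.81 and for Vim −0.72 with one of −2.45 to 0.998. The median over all genes was 0.19, and −0.07 with quantile normalization. Marker sums differed too: the endothelial sum of T11 was 6876 and the pericyte sum 9052, both within the ranges of the other p53null tumors (2041 to 16462 and 5679 to 20536). Its fibroblast sum was 225122, within their 21474 to 250713 and above the 14888 to 56137 of the claudin-low PLK2null tumors. Its epithelial sum was 33769, below the 70296 to 283464 of the other p53null tumors. This sum was above the 49.1 to 387 of the claudin-low PLK2null tumors. The part of these markers in the result for Twist2 was not tested.

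**Figure D4:**
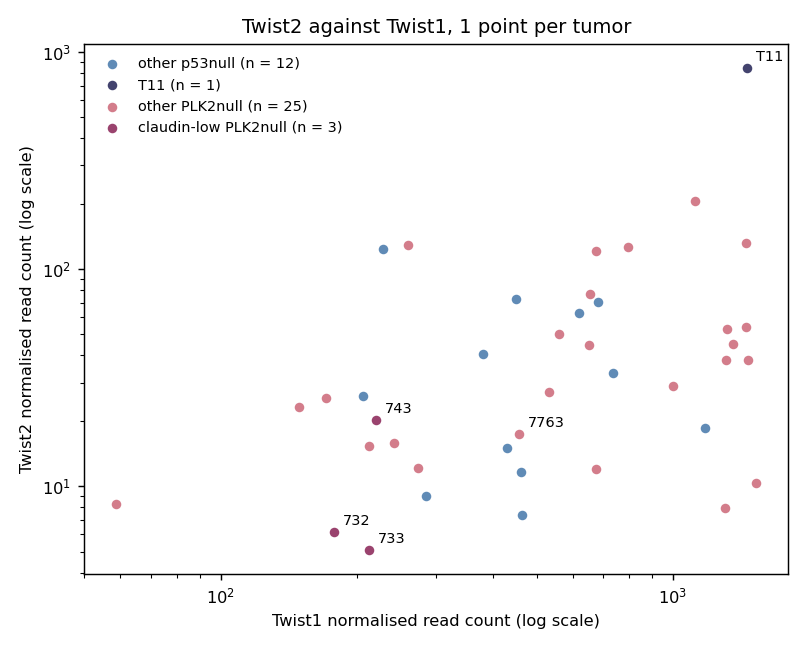
Twist2 (vertical axis) against Twist1 (horizontal axis), normalised read counts on log scales, 1 point per tumor. T11 is at the upper right with a Twist2 of 842, and the 3 claudin-low PLK2null tumors are at the lower left with 5.08 to 20.1.

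Over both genotypes, with genotype in the fit, the 4 claudin-low tumors were compared with the 37 others. Zeb1, Zeb2, Vim and Cdh1 were called, against 31.3% of all genes, 16.1% higher and 15.2% lower. The PLK2null tumors are shared with the comparison within that genotype, so this is not a separate test. The 4 tumors also differed from one another in markers. The endothelial sum was 165585 to 186496 in the 3 claudin-low PLK2null tumors and 6876 in T11, and the epithelial sum was 49.1 to 387 and 33769. The part of these markers in the pooled result was not tested. The log2 differences were −8.66 for Cdh1 (SE 0.48, limma adjusted p = 3.63e-18), 3.91 for Zeb1 (SE 0.56, 6.06e-07), 2.28 for Vim (SE 0.37, 6.20e-06) and 1.33 for Zeb2 (SE 0.38, 0.00688). All 4 claudin-low tumors lay above the 37 others in Zeb1, as in 0.976% of genes, and below them in Cdh1, as in 2.96% of genes. Without T11, Zeb2 was not called (1.11, adjusted p = 0.0518).

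The factors varied among tumors outside the claudin-low class. Snai2 had the widest spread of the 10 genes in the 25 other PLK2null tumors, a SD of 2.19 on the log2 scale, wider than in 95.9% of all genes. Fn1 (SD 1.76, 91.6%) and Cdh2 (1.56, 88.4%) followed, and Zeb2 had the narrowest of the 10 (0.62, 52.6%). Cdh1 and Vim varied little in the 12 other p53null tumors, with SDs of 0.60 and 0.54 that were wider than in 42.9% and 35.9% of genes.

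Across the 37 tumors that are not claudin-low, the Snail factors ran in opposite directions. Spearman's rho between Snai1 and Snai2 was −0.70, that between Snai1 and Fn1 was 0.75 and that between Snai2 and Fn1 was −0.77. Zeb1 and Zeb2 ran in parallel with a rho of 0.70, and rho was 0.54 for Zeb1 with Vim and −0.44 for Zeb1 with Cdh1. Cdh1 had a negative rho also with Snai2 (−0.47), Vim (−0.33), Twist2 (−0.31), Cdh2 (−0.21) and Zeb2 (−0.19). Its rho was positive with Fn1 (0.53), Snai1 (0.36) and Twist1 (0.32). Twist1 and Twist2 had a rho of 0.28. These 37 tumors span both genotypes, of which only the p53null titles carry the series name, and some may share descent. Snai1 was higher and Snai2 lower in the PLK2null tumors, so their rho mixes differences between and within genotypes. No p is given for these reasons.

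**Figure D5:**
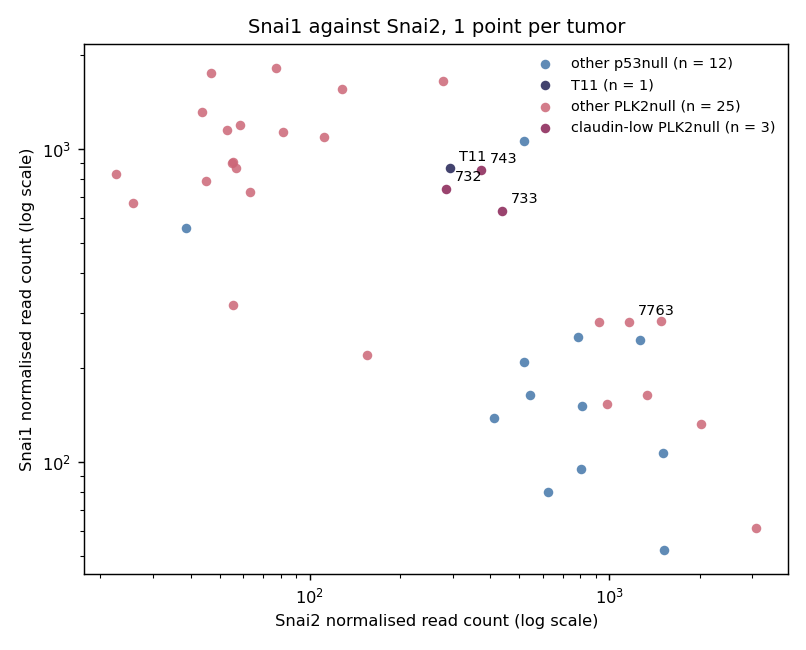
Snai1 (vertical axis) against Snai2 (horizontal axis), normalised read counts on log scales, 1 point per tumor. Tumors high in Snai2 were mostly low in Snai1 (rho −0.70 over the 37 tumors outside the claudin-low class), and the 4 claudin-low tumors lie between the extremes of Snai2.

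In the 12 other p53null tumors, which carry 1 genotype label and the same series name in their titles, 12 pairs were tested on the log2 scale. These were Cdh1 with each of the other 9 genes, and the Snai, Twist and Zeb pairs. The tumors include p53null-7435, which had a Plk2 of 186 and was 1 of the 2 tumors farthest from the median of Zeb1. Fn1 with Snai1 or Snai2 and Zeb1 with Vim were not among them. Zeb1 with Zeb2 had Pearson's r = 0.84 (permutation p = 0.00062, adjusted p = 0.00744) and Spearman's rho = 0.78 (permutation p = 0.00448, adjusted p = 0.0538), and r was 0.70 without the 2 tumors farthest from the median of Zeb1. Snai1 with Snai2 had r = −0.55 (permutation p = 0.0780, adjusted p = 0.312) and rho = −0.51 (permutation p = 0.0924, adjusted p = 0.405), with r = −0.31 without the 2 farthest tumors. Cdh1 with Zeb1 had r = −0.13 (permutation p = 0.673, adjusted p = 0.892) and rho = −0.12 (permutation p = 0.714, adjusted p = 0.857), with r = 0.18 without the 2 farthest. None of the other 9 pairs passed either, with adjusted permutation p of at least 0.312 for r and 0.405 for rho.

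For each of the 10 genes, the 3 named genes with the highest rho over the 37 tumors were taken from 17208 genes. The closest were Kcnip3 to Snai2 (rho 0.95), Tnfrsf1b to Fn1 (0.91), Pip4k2a to Zeb2 (0.89) and Msn, which encodes moesin, to Snai1 (0.87). Snai2 was also followed by Myl9, a myosin light chain of contractile cells (0.91), and Efcab1 (0.91). Fn1 was followed by Emilin2 (0.88), another matrix glycoprotein, and Trem1 (0.85). Zeb2 was followed by Colec12 (0.86) and Map4k4 (0.86), and Snai1 by Slc25a24 (0.87) and Plk3 (0.87).

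Zeb1 was matched by Abcb1b, a drug efflux transporter (rho 0.84), and Gdf11 (0.81). For Twist1 the values were lower, with Atpaf2 at 0.75, Nrk at 0.75 and Wnt7b at 0.74, and for Twist2 lower still, with the transcription factor Gata2 at 0.67, Trappc6b at 0.59 and Prrx2, a homeobox factor of mesenchyme, at 0.56. Vim had Cdc42ep2 at 0.74, Glipr2 at 0.69 and Mapre2 at 0.67.

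Both cadherins were matched mostly by genes of their own chromosome. Cdh1 had Elmo3 (rho 0.78) and Atp11a (0.77), both on its chromosome 8, and Ptger2 (0.78). On that chromosome lie 4.92% of the genes compared. Cdh2 had Dnajc18 (0.78) and Elp2 (0.73), both on its chromosome 18, and Ttc19 (0.76), where 2.57% of the genes compared lie on that chromosome. Snai2 and Zeb2 each had 1 of 3 on their own chromosome, and the other 6 genes had none. Copy number was not measured in these libraries.

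Known partners and relatives were counted within the PLK2null tumors, claudin-low against other, so T11 is not among the claudin-low tumors of these lists. All 12 regulators of the epithelial state were lower, against 20.2% higher and 17.1% lower of all genes, with a median log2 difference of −7.15 against 0.02 for all genes. Esrp1, which directs epithelial splicing, was listed at 0 in 2 claudin-low tumors and at 7.16 in the third, against 314 to 6782. Elf3, an epithelial ETS factor, was 0.565 to 6.44 against 184 to 2976. The smallest differences in this list were those of Ovol1 (−2.36, SE 0.38, limma adjusted p = 1.51e-05) and Grhl3 (−2.24, SE 0.54, limma adjusted p = 0.00172). Between the genotypes none of the 12 was called by limma.

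Of 13 other factors linked to the transition that were tested, 3 were higher and 5 lower, against 20.2% higher and 17.1% lower of all genes. Tcf4, an E protein that partners bHLH factors, was 14458 to 15510 in the claudin-low tumors against 1428 to 8924 in the others (log2 difference 2.58, SE 0.30, limma adjusted p = 1.11e-07). Foxc2, a forkhead factor of mesenchyme and vessels, was 701 to 796 against 5.27 to 562 (3.51, SE 0.94, adjusted p = 0.00401). Sox9 was 31.6 to 132 against 496 to 4743, and Foxc1, the close relative of Foxc2, was 59.3 to 115 against 535 to 3178. Foxc1 and Foxc2 thus differed in opposite directions. Prrx2, Snai3 and Id2 were also lower and Id3 higher.

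The cytoplasmic and nectin partners of the cadherins were split. Of 10, 5 were higher (Ctnnb1, Vcl, Mllt4, Pvrl2 and Pvrl3) and 3 lower (Ctnna1, Pvrl1 and Pvrl4), against 20.2% higher and 17.1% lower of all genes. Here Mllt4 encodes afadin and the Pvrl genes encode nectins. Pvrl2 was 8727 to 10166 against 967 to 2979 (log2 difference 2.58, SE 0.24, limma adjusted p = 2.55e-09), and Pvrl3 1174 to 1438 against 158 to 845. Pvrl4 was 46.1 to 98.8 against 280 to 8968 and Pvrl1 181 to 283 against 545 to 2608. In T11, Pvrl2 was 877, below the 1453 to 5124 of the other p53null tumors. Pvrl1, Pvrl3 and Pvrl4 of T11 lay on the same side of those tumors as in the claudin-low PLK2null comparison. Ctnnd1 and Jup, which bind the cadherin tail, were not called.

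Of 9 other cadherins tested, 3 were higher and 3 lower, against 20.2% higher and 17.1% lower of all genes. Cdh5, the cadherin of endothelial junctions and one of the endothelial markers, was 39310 to 50368 in the claudin-low tumors against 629 to 20398 (log2 difference 4.85, SE 0.53, limma adjusted p = 3.84e-08). Cdh4 was 60.4 to 165 against 0 to 40.3, and Cdh13 was higher as well. Cdh3, the P-cadherin of basal epithelium, was 3.595 to 17.9 against 124 to 4216. Cdh15 had at most 0.599, below the floor of 3 reads, against 0.670 to 107 in the other PLK2null tumors and 1705 in T11. Cdh11, a cadherin of mesenchymal cells, was also called lower.

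Of 6 intermediate filament genes tested beside Vim, Des, Nes and Nefl were higher and Gfap lower, against 20.2% higher and 17.1% lower of all genes. Nes, which encodes nestin, was 12361 to 17688 against 865 to 23390 (log2 difference 1.79, SE 0.66, limma adjusted p = 0.0336), and Des, the filament of muscle and mural cells, was 718 to 793 against 40.9 to 668. Nefl was 114 to 399 against 1.17 to 4443. Gfap was at most 2.86 in the claudin-low tumors against 3.07 to 41.2.

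Of 12 fibronectin receptors and matrix partners, 4 were higher and 3 lower, against 20.2% higher and 17.1% lower of all genes, while Fn1 itself was not called. Itga5, the alpha subunit of the classical fibronectin receptor, was 9467 to 13560 in the claudin-low tumors against 463 to 10859 (log2 difference 2.64, SE 0.55, limma adjusted p = 0.000387). Its partner Itgb1 and Itga4 were higher as well. Sparc, a matrix-binding glycoprotein, was 163285 to 180221 against 13054 to 88716. Itga8 was 60.8 to 108 against 313 to 4342, Itgb6, the epithelial fibronectin receptor subunit, was 0.599 to 1.69 against 36.7 to 344, and Postn was also called lower.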

How the data were processed

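RNA-seq of 41 mouse mammary tumors, 1 paired-end library each, was used. The authors aligned reads to mm10 with STAR 2.7.6a and quantified genes with Salmon 1.4.0, with Picard 2.22.4 and SAMtools also named in the submitters' processing notes. They deposited a linear signal: estimated counts divided by each tumor's upper quartile, which lies at 1000. The annotation used and any filter on the deposited genes are not given in the sources used here. Scaling by the upper quartile makes every value relative to the other genes of a tumor.

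The step between low values gives the worth of 1 read in each tumor. Within a tolerance of 0.1 read, 77.3 to 80.3% of nonzero values were whole reads, and a count model was therefore not fitted. Genotype came from the labels and the claudin-low class and latency series from the study. The most alike pair of libraries, PLK2null-7750 and PLK2null-1984, differed by 4.48 per gene (median chi-square, genes of at least 20 reads). PLK2null-732 and PLK2null-733 were the third most alike pair (4.96). PLK2null-1986 was close to PLK2null-7750 (4.70), PLK2null-1984 (5.11) and PLK2null-1985 (5.14). Each tumor was entered as 1 sample, and whether alike tumors share descent was not tested.

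The statistic was limma 3.58.1 (R 4.3.3) without an intensity trend, fitted to log2(value + 1) of genes averaging 10 or more in the tumors compared, with an adjusted p of 0.05 as the threshold. Correlations used 100000 permutations. Other steps ran in Python 3.11.15 with scipy 1.17.1, numpy 2.4.6 and pandas 2.3.3, plots in matplotlib 3.10.9, and the tests were checked on simulated data. Positions and exon lengths came from GENCODE vM21. In the lists of partners, 5 symbols were matched by an older symbol in RefSeq. Named list genes were the 2 largest and 2 smallest log2 differences among those called in claudin-low PLK2null tumors; other list genes named without values were chosen after their values were seen. Genes most like each gene leave out predicted genes. 1 such gene is not reported here. The 10 genes, the lists and the tests were chosen with earlier results of these data known. Alternatives were other pseudocounts, filters, scalings and a trend, tumors left out, the latency series alone, and terms for genotype or class. Sequences of proteins, and promoters of the other 5 genes, were not used here.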

Additional observations from a re-analysis of the deposited data

Results flagged for a closer look

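Twist1 in T11 stood apart from the other claudin-low tumors, with a normalised read count of 1459 against 178 to 221, and the gap was 0.899 of the range on the log2 scale, above Dixon's 95% critical value for 4 samples. Of 20 groups examined in this way, 1 gave such a sample, and chance gives about 1 in 20. The claudin-low difference of Twist2 in the PLK2null tumors minus that of T11 from the other p53null tumors was −6.71 on the log2 scale (SE 1.51, limma adjusted p = 0.00309). T11 is the only claudin-low p53null tumor and was assumed to vary like the other groups, so the genotype and this 1 tumor cannot be told apart, and no alternative varied that arm.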

How the results depend on the processing

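Across all alternatives, 451 of 476 differences of the 10 genes kept their direction and side of the threshold, and 93 of 96 counts stayed within 1.5 times. With a pseudocount of 10, all 12 correlations by Pearson's r kept their direction and side of the threshold. Without the 2 farthest tumors, r turned sign for Cdh1 with Zeb1 (−0.13 to 0.18), Cdh1 with Zeb2 (−0.28 to 0.075), Cdh1 with Twist1 (0.12 to −0.15), Cdh1 with Vim (−0.059 to 0.16) and Twist1 with Twist2 (−0.044 to 0.039). Between the genotypes, the latency series alone gave 2942 genes and 0 of the 10 genes called by limma (5103 genes at an unadjusted p below 0.05), with Snai1 at 1.47, Snai2 at −1.10 and Zeb2 at 1.05 no longer called, and Twist1 at −0.087 and Cdh1 at 0.089 of the other sign. Cdh2 was called with an intensity trend (1.24) and without the 4 claudin-low tumors (1.52), where Twist2 was 0.27. Vim was 0.079 with quantile normalization and Twist1 −0.033 with median-of-ratios rescaling.

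For claudin-low within PLK2null, Twist2 was called at −2.01 (pseudocount 0.1), −1.95 (median-of-ratios) and −1.94 (without PLK2null-7763), and was −2.46 to −1.56 when each claudin-low tumor was left out. Zeb2 was 1.01 to 1.19 when each was left out and 1.35 against the latency tumors, where Fn1 was 0.16. Across genotypes, leaving out each claudin-low tumor gave −1.90 to 0.56 for Twist2, 1.11 to 1.45 for Zeb2, −0.52 to 0.71 for Cdh2 and −0.60 to 0.93 for Fn1, and Twist2 was 0.15 with a pseudocount of 10 and 0.10 with quantile normalization. The interaction had 0 of the 10 genes called by limma where genes needed a mean of 100, since Twist2 was then not tested. The causes of the other changes were not tested. Leaving out PLK2null-7763 outside the PLK2null comparison was chosen after seeing the data. No paired analysis was possible because the labels number no replicates. With 1 claudin-low p53null tumor and 3 claudin-low PLK2null tumors, precision was limited by the number of tumors and, for Twist2 and claudin-low Cdh1, by values near the floor of 3 reads.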
